A study of Mus musculus with 9 samples.

Results

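Amino acid transporter genes were taken from RNA sequencing counts of primary cultured renal cells by their mouse symbols, namely those that start with Slc1a, Slc3a, Slc6a, Slc7a, Slc36a, Slc38a or Slc43a. The rule found 67 of the 57010 genes counted: 7 of Slc1a, 2 of Slc3a, 22 of Slc6a, 16 of Slc7a, 6 of Slc36a, 11 of Slc38a and 3 of Slc43a. The cells came from digested whole kidneys of wild-type mice and were therefore a mixture grown in dishes, not a sorted cell type. The design has 3 conditions with 3 libraries each, sampled 6 h after treatment: PBS, the cytokine TNF at 20 ng/mL, and TNF at 20 ng/mL with the NF-kB pathway inhibitor ACHP at 1 µM. No culture received ACHP alone, so every ACHP value is one measured in the presence of TNF. The labels do not state that replicates were separate animals, and p-values measure the spread between these libraries, which may be technical.

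Amino acid transporters move amino acids and related small molecules such as taurine, creatine and neurotransmitters across membranes. Several work as pairs: Slc3a2 encodes a heavy chain that carries light chains of the Slc7a family to the cell surface, and Slc3a1 does the same in the kidney tubule. Slc38a and Slc1a carriers draw on the sodium gradient, Slc36a carriers on protons, and the cationic carriers of the Slc7a family import arginine and lysine. In the intact kidney, carriers such as Slc6a19, Slc7a9 with Slc3a1, and Slc1a1 recover amino acids from the filtrate. In brain, Slc1a2 and Slc1a3 take up glutamate and Slc6a11 takes up GABA.

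Library totals ran from 14194295 to 20892176 counts. A list of 15 neuron genes, among them Snap25 and Camk2a, summed to 92.0 and 109 CPM (counts per library brought to one total by TMM factors) in PBS replicates 3 and 2 and to between 47.7 and 79.9 CPM in the 3 TNF libraries. It summed to only 21.5 CPM in PBS replicate 1 and to between 19.3 and 21.4 CPM in the 3 libraries with ACHP. Transporter genes that went with these transcripts were therefore set apart by a rule on the PBS libraries alone: a mean of PBS replicates 2 and 3 at least 4 times the value of replicate 1, with 0.25 CPM added to each. The rule set apart 5 genes, of which 4 (Slc1a2, Slc1a3, Slc6a11 and Slc7a14) are described separately. Among markers of the tubule that the culture should hold, 9 of 14 proximal tubule genes did not pass the filter on low counts, and Miox, Acsm2 and Slc22a6 had no PBS count, while Ggt1 stood at 27.3 CPM in PBS. The 10 fibroblast genes listed summed to between 815 and 929 CPM in PBS, 731 and 755 with TNF and 630 and 695 with ACHP added, with no overlap between conditions. Of the 9 tested, 3, 4 and 6 were lower for TNF versus PBS, ACHP added to TNF, and both agents versus PBS. Of all genes tested by edgeR, 2.91%, 4.46% and 3.87% were called lower in these comparisons. The part of the fibroblast genes in the transporter values was not tested.

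Of the 67 genes, 39 passed the filter on low counts and were tested, 34 of them outside the 5 set apart. With PBS, 20 genes stood at 10 CPM or more, 14 at 1 to under 10 CPM, 24 above 0 and under 1 CPM, and 9 had no PBS count. In no library did Slc1a7, Slc7a12, Slc36a2, Slc36a3, Slc6a2, Slc6a16 or the noncoding Slc36a3os and Slc6a19os have a count, where 3 counts, the limit that a count of 0 allows, correspond to 0.143 to 0.212 CPM per library. Of the symbols under the rule, 5 were given no transporter role (Slc36a1os, Slc36a3os, Slc6a19os, Slc6a21 and Slc7a6os), and only Slc7a6os, a coding neighbour of Slc7a6, was tested. The other symbols include carriers of neurotransmitters, osmolytes and creatine, and orphans, so not all of them carry amino acids.

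Per length of exon, a small number of genes made up most of the transporter message. Slc38a2, a sodium-coupled carrier of small neutral amino acids, had the highest PBS level at 62.4 ± 4.07 CPM per kb (SD, n = 3), which was 21.7% of the level summed over all 67 genes. The taurine carrier Slc6a6 followed at 32.9 ± 0.408 CPM per kb and the heavy chain Slc3a2 at 30.1 ± 1.40. The arginine carrier Slc7a1 at 21.7, the creatine carrier Slc6a8 at 21.5 and the light chain Slc7a6 at 21.1 CPM per kb came next, and their library values overlapped, so the order among these 3 is not resolved. The glutamine carrier Slc38a1 at 14.2, the leucine carrier Slc7a5 at 13.8 and Slc38a10 at 12.98 CPM per kb followed. Slc7a5 overlapped both of the others, while every PBS library of Slc38a1 lay above every one of Slc38a10. Below them came Slc1a4 at 9.74 and Slc1a5 at 7.99 CPM per kb, both exchangers of small neutral amino acids.

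The summed level differed between conditions by less than the spread of the PBS libraries. All 67 genes together came to 287.81 ± 8.07 CPM per kb in PBS, 289.78 ± 4.78 with TNF and 292.63 ± 1.47 with ACHP added (SD, n = 3). The 5 genes highest in PBS held 58.6%, 57.6% and 58.9% of the sum in these 3 conditions, and the 10 highest held 83.6%, 83.1% and 84.7%.

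**Figure D1:**
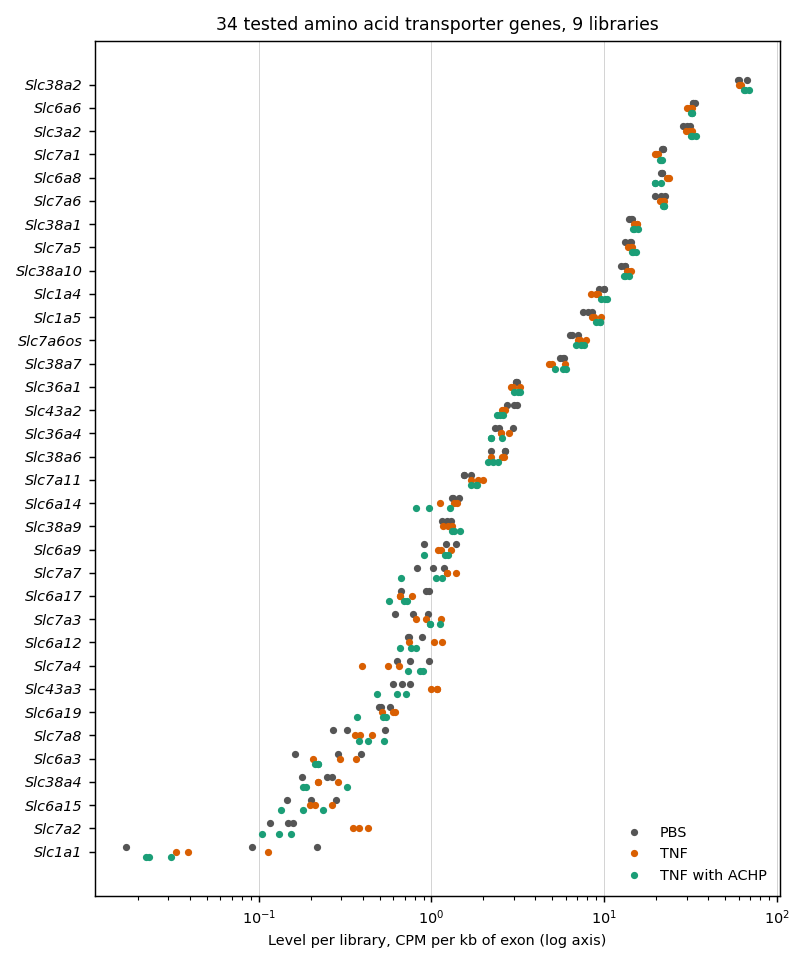
Level of 34 tested amino acid transporter genes in each of the 9 libraries, as CPM per kb of exon on a log axis, ordered by the PBS mean; each point is a library, coloured by condition. Slc38a2 lies at the top at 62.4 CPM per kb in PBS, the 3 conditions lie close together for the abundant genes, and Slc7a2, near the bottom, has its TNF libraries clear of the others.

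Slc7a2 and Slc43a3 were higher with TNF and Slc7a1 was lower, the last 2 only at the edge of the threshold. By edgeR's quasi-likelihood test, where a call needs a p under 0.05 after Benjamini-Hochberg adjustment across the 14747 genes tested, 3 of 39 transporter genes were called between TNF and PBS, all 3 outside the set-apart group. These 3 are 7.69% of the transporter genes tested, a share near the 6.22% of all genes tested that were called, 3.31% higher and 2.91% lower. Of 20 alternative fits, the call held in 20 for Slc7a2, 9 for Slc43a3 and 7 for Slc7a1. The median log2 fold change over the 34 genes outside the set-apart group was 0.04, beside 0.00 over all genes tested. At an unadjusted p under 0.05 there were 13 transporter genes, 7 higher and 6 lower, and DESeq2 called 2 at its adjusted p under 0.05. The share of all genes tested at an unadjusted p under 0.05 was not counted. No excess is therefore read from this or any later count at an unadjusted p. All 20 genes at 10 CPM or more in PBS had log2 fold changes within 0.25 of 0, the largest being 0.20 for Slc7a11. They include Slc7a6os, which has no transporter role, and the set-apart gene Slc1a2. The value of Slc1a2, -0.06 (SE 0.46), hangs on PBS replicate 1 and was -0.58 without it.

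Adding ACHP to TNF was followed by a similar small number of calls outside the set-apart group. There, 3 of 34 genes were lower than with TNF alone (Slc7a2, Slc43a3 and Slc6a8) and none was higher, although 4 were higher at an unadjusted p under 0.05, and DESeq2 likewise called 3 lower and 0 higher. With the set-apart genes the count was 7 of 39, or 17.9%, all lower, against 7.17% of all genes tested, 2.71% higher and 4.46% lower. The set-apart genes go with neuron transcripts, in which every TNF library and no ACHP library was rich. Their fall was therefore favoured by the choice, and no excess is read from the 17.9%. The median log2 fold change of the 34 genes was -0.04, beside 0.00 over all genes tested. Between TNF with ACHP and PBS, 2 of 34 genes were called, Slc1a5 higher and Slc43a2 lower, and DESeq2 called 0, with 9 genes at an unadjusted p under 0.05 by edgeR. Including the set-apart genes that count was 7 of 39, 1 higher and 6 lower, against 6.04% of all genes tested, 2.18% higher and 3.87% lower. Nothing is read from that count, since PBS values chose the set-apart genes. The comparisons share libraries with each other, so their calls are not independent.

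**Figure D2:**
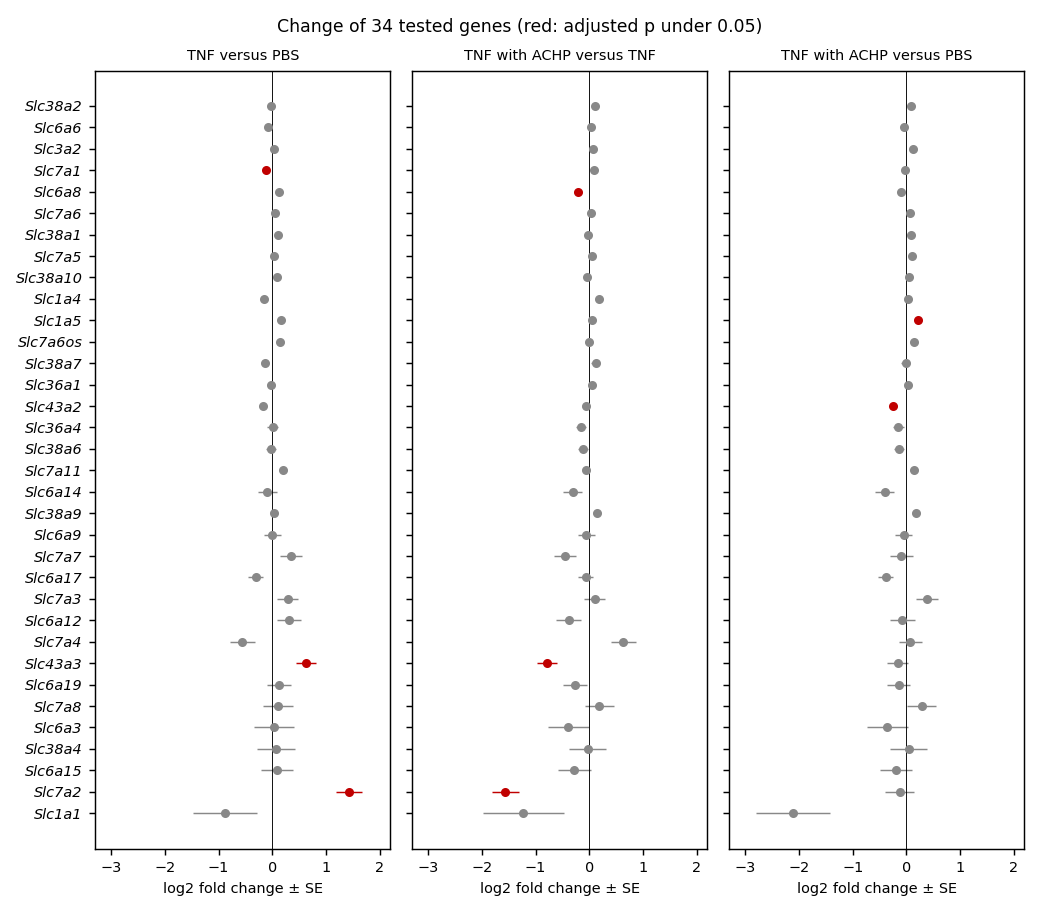
The log2 fold change and its SE for the same 34 genes in the 3 comparisons, from the fit of all 9 libraries, with genes in the order of their PBS level per kb and red marking an adjusted p under 0.05. Most abundant genes sit within 0.25 of 0, and Slc7a2 stands at 1.44 with TNF and at -1.56 when ACHP was added.

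Among the cationic carriers, Slc7a2 rose with TNF and overlapped PBS when ACHP was present. Slc7a2 encodes CAT2, a carrier of arginine, lysine and ornithine known as inducible in macrophages (ENSMUSG00000031596, chromosome 8, 41315433 to 41375345 on GRCm39, 9135 bases of exon, none shared with another gene). Its values were 1.06, 1.45 and 1.35 CPM in PBS, 3.90, 3.20 and 3.46 CPM with TNF, and 1.41, 1.19 and 0.956 CPM with ACHP added. All 3 TNF libraries lay above the other 6, which overlapped. The counts behind them were 15, 26 and 25, then 71, 48 and 54, then 23, 25 and 15. On the log2 scale TNF stood 1.44 above PBS (SE 0.24, edgeR adjusted p = 0.00085), and adding ACHP gave a change of -1.56 (SE 0.25, edgeR adjusted p = 0.00037), which left a difference of -0.13 from PBS (SE 0.28, edgeR adjusted p = 0.87).

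The TNF effect on Slc7a2 was called in each of 20 alternative fits, between 1.33 and 1.53. The ACHP effect was called without any single library, but not with the neuron list as a covariate (-1.38, edgeR adjusted p = 0.086) or with a term for the 5 libraries rich in neuron transcripts (-1.16, edgeR adjusted p = 0.38). All TNF libraries were rich in these transcripts and no ACHP library was, so within that pair of conditions the transcripts and ACHP cannot be told apart. The 12 macrophage genes listed summed to 34.7 to 39.3 CPM in PBS, 36.2 to 38.8 with TNF and 14.98 to 16.1 with ACHP added, with C1qa at 0.06 to 0.14 CPM in the ACHP libraries. Of the 9 macrophage genes tested, 7 were called lower when ACHP was added, beside 4.46% of all genes tested. Their part in the ACHP values of Slc7a2 was not tested. Fewer cells of a type and less RNA per cell cannot be told apart in these bulk libraries.

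The other cationic carriers did not share that course. Slc7a1 encodes CAT1, the general arginine and lysine carrier, and per kb it was the more abundant by far, at 21.7 CPM per kb in PBS against 0.141 for Slc7a2. Slc7a1 stood at 252, 248 and 251 CPM in PBS, 230, 228 and 237 with TNF and 247, 244 and 249 with ACHP added. Every TNF library was below every other library, and the fall with TNF was 0.11 on the log2 scale (fold change -0.11, SE 0.03, edgeR adjusted p = 0.048). The call is at the edge of the threshold: of the 9 fits that each left out a library it held only in the 1 without ACHP replicate 1, and the values ran from -0.13 to -0.10. For Slc7a3, a related carrier best known from brain, 2.97 ± 0.648 CPM in PBS stood beside 3.63 ± 0.615 with TNF and 3.88 ± 0.301 with both agents (SD, n = 3), with no call. Slc7a4, an orphan of the group with 13.3% of its exon length shared with P2rx6, had 3.24 ± 0.703 CPM in PBS, 2.22 ± 0.53 with TNF and 3.44 ± 0.339 with both, with no call either.

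**Figure D3:**
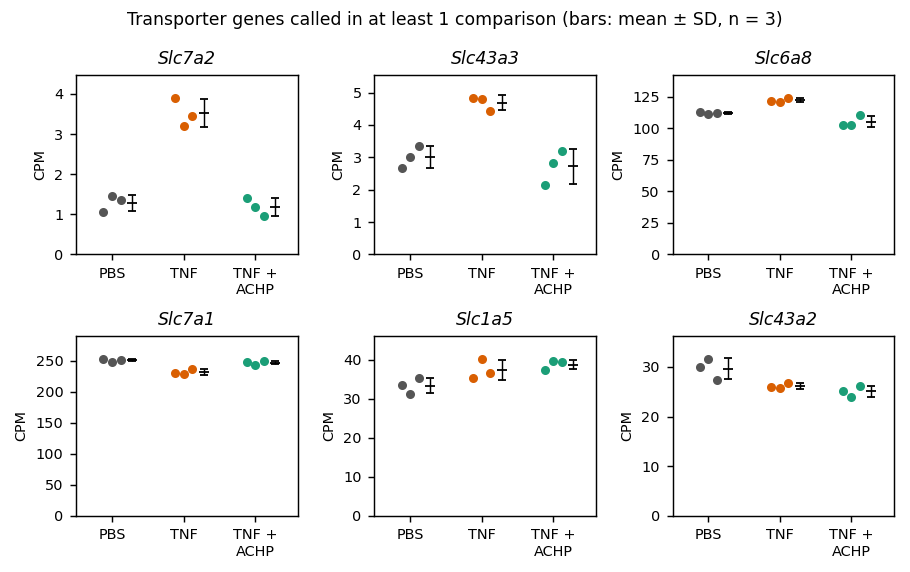
CPM of the 6 genes outside the set-apart group that were called in at least 1 comparison; points are libraries, bars to their right are mean and SD of 3 libraries, and each vertical axis starts at 0. For Slc7a2 the 3 TNF libraries lie at 3.20 to 3.90 CPM and the other 6 at 0.956 to 1.45; for Slc6a8, Slc7a1, Slc1a5 and Slc43a2 the conditions differ by little of their height.

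The Slc43a family followed with the second gene raised by TNF. Slc43a3, which transports purine nucleobases although its family includes amino acid carriers (chromosome 2, 84766923 to 84788853 on GRCm39), had 2.68, 3.01 and 3.36 CPM in PBS, 4.83, 4.80 and 4.42 with TNF, and 2.15, 2.81 and 3.19 with ACHP added. The TNF libraries again lay above all others. The log2 fold change was 0.63 with TNF (SE 0.18, edgeR adjusted p = 0.048) and -0.78 when ACHP was added (SE 0.19, edgeR adjusted p = 0.012). The first call was lost when any PBS or TNF library was left out, at 0.55 to 0.71, and with DESeq2 (0.63, adjusted p = 0.096). The second was lost without TNF replicate 1 (-0.76, edgeR adjusted p = 0.059), without TNF replicate 2 (-0.77, edgeR adjusted p = 0.053) and with the neuron list as a covariate (-0.66, edgeR adjusted p = 0.30) or the term for neuron-rich libraries (-0.54, edgeR adjusted p = 0.58). The macrophage and neuron values given for Slc7a2 move with the ACHP value of Slc43a3 as well, and their part was not tested.

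Slc43a2, a carrier of branched-chain and other large neutral amino acids, had 30.1, 31.5 and 27.4 CPM in PBS, 26.0, 25.7 and 26.8 with TNF, and 25.2, 23.9 and 26.1 with ACHP added. All PBS libraries were above all treated ones. It was called lower only for TNF with ACHP versus PBS (log2 fold change -0.25, SE 0.07, edgeR adjusted p = 0.032), and that call was lost without PBS replicate 1 or 2 or without any ACHP library (-0.27 to -0.20). For TNF versus PBS the value was -0.18 (edgeR adjusted p = 0.13). Slc43a1, a relative with 23 counts in all libraries, was not tested.

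The heavy chain Slc3a2 and its 5 light chains that were tested showed no call in any comparison by edgeR or DESeq2. By edgeR, 6.22%, 7.17% and 6.04% of all genes tested were called in the 3 comparisons, so little is read from this absence in so few genes. In each comparison 1 of these chains had an unadjusted p under 0.05. Slc3a2 (chromosome 19, 8684246 to 8700733 on GRCm39) had 107, 101 and 111 CPM in PBS, 105, 114 and 109 with TNF, and 112, 113 and 120 with ACHP added. The PBS and TNF values overlapped, while all ACHP libraries lay above all PBS libraries. Its log2 fold changes were 0.04, 0.08 and 0.12 for TNF versus PBS, ACHP added to TNF, and both agents versus PBS. Summed per kb, the 6 light chains that pair with it (Slc7a5, Slc7a6, Slc7a7, Slc7a8, Slc7a10 and Slc7a11) came to 37.9 ± 1.78 CPM per kb in PBS, 39.5 ± 0.635 with TNF and 40.1 ± 0.134 with both (SD, n = 3), beside 30.1, 31.0 and 32.6 CPM per kb for the heavy chain.

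Slc7a5 (LAT1), the leucine carrier that supplies mTORC1 signalling, had log2 fold changes of 0.04, 0.06 and 0.10 in the same order. Slc7a6, which exchanges arginine for neutral amino acids, had 0.04, 0.02 and 0.07. Slc7a11 (xCT), the cystine and glutamate exchanger that feeds glutathione synthesis, had 21.6, 21.5 and 23.7 CPM in PBS, 25.9, 23.5 and 27.5 with TNF, and 25.1, 23.7 and 25.4 with both agents. Its TNF and PBS values overlapped at 1 library each, and the change of 0.20 did not pass the test (SE 0.07, edgeR adjusted p = 0.12). The low light chains Slc7a7, at 3.34 ± 0.584, 4.26 ± 0.307 and 3.17 ± 0.855 CPM, and Slc7a8, at 1.88 ± 0.704, 1.99 ± 0.244 and 2.24 ± 0.389 CPM, were not called.

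Both Slc7a11 and the neutral amino acid exchanger Slc1a4 are known targets of the amino acid response through ATF4, and their promoters hold the core of the C/EBP-ATF response element. RefSeq promoter windows on GRCm38.p6, 250 bases before to 50 after each start, covered 49 of the 67 genes and 28 of the 39 tested. Slc7a2, Slc43a3, Slc6a8 and Slc1a5 are not among the genes covered, and their promoters were not searched. The core TGATGNAA, on either strand, was in 3.97% of 32851 windows and in those of 4 transporter genes, Slc1a4, Slc7a7, Slc7a11 and Slc6a21. The 120 bases shown run from 100 before the start to 20 from it, 5′ to 3′ on the gene's strand, at chr3:50443594-50443713 for Slc7a11 and chr11:20332694-20332813 for Slc1a4, both on the minus strand. Capitals mark the core on either strand, found in 2 copies for Slc7a11 and 1 for Slc1a4.
Slc7a11: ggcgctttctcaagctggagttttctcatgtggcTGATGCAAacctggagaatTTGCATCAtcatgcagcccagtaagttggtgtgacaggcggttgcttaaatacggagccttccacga
Slc1a4: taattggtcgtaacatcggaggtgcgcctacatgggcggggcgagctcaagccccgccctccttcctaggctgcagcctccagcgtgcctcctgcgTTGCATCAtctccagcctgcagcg
Neither gene was called in any comparison. The core of the kappa B site, searched as GGANTTTCC on both strands, was in 1.25% of the windows and in those of Slc6a12 and Slc6a13. The antioxidant response element core, searched as TGACNNNGC, was in 12.4% of the windows and in those of 10 transporter genes, among them Slc38a2, Slc7a1 and Slc7a6. A match to these letters is a description of the sequence and not evidence of binding.

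Among the Slc1a carriers outside brain types, Slc1a5 (ASCT2), the exchanger known for glutamine uptake, had 33.5, 31.3 and 35.2 CPM in PBS, 35.4, 40.1 and 36.6 with TNF and 37.3, 39.5 and 39.4 with both agents. Both treated groups were above all PBS libraries and overlapped each other. Its log2 fold change was 0.22 for TNF with ACHP versus PBS (SE 0.06, edgeR adjusted p = 0.043) and 0.16 for TNF versus PBS (edgeR adjusted p = 0.16). The call held in 3 of 9 fits without a library, with values from 0.17 to 0.26, and was lost without PBS replicate 1 or 2, without TNF replicate 1 or 3 and without ACHP replicate 2 or 3. DESeq2 did not call it (0.21, adjusted p = 0.11). Slc1a4 (ASCT1) had 36.5, 39.3 and 38.9 CPM in PBS, 33.1, 36.0 and 35.1 with TNF and 39.6, 40.9 and 37.4 with both. The TNF libraries were below all others, while the changes of -0.14 with TNF (SE 0.06, edgeR adjusted p = 0.18) and 0.18 on adding ACHP (SE 0.06, edgeR adjusted p = 0.064) did not pass the test.

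Of the 11 Slc38a carriers 7 were tested and 0 called in any comparison by edgeR or DESeq2, beside 6.22%, 7.17% and 6.04% of all genes tested in the 3 comparisons by edgeR. At an unadjusted p under 0.05 there were 1, 1 and 2 of them for TNF versus PBS, ACHP added to TNF, and both agents versus PBS. Slc38a2 had 529, 533 and 593 CPM in PBS, 537, 535 and 550 with TNF and 577, 606 and 571 with both agents. PBS replicate 3 reached into the range of the ACHP libraries, and the log2 fold changes were -0.03, 0.11 and 0.08. For ACHP added to TNF, 3 of 20 alternative fits called Slc38a2 higher, each at 0.11. Slc38a1 stood at 245 ± 4.59, 264 ± 6.27 and 260 ± 8.89 CPM in the 3 conditions (SD, n = 3), with 0.10 for TNF versus PBS (edgeR adjusted p = 0.097). All TNF libraries of Slc38a1 and of Slc38a10 lay above all their PBS libraries. Slc38a9, a lysosomal arginine sensor upstream of mTORC1, stood at 20.4 ± 1.25, 20.7 ± 1.19 and 23.0 ± 1.29 CPM. The other 3 tested (Slc38a6, Slc38a7 and Slc38a4) and Slc38a10 had log2 fold changes within 0.25 of 0.

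Among the Slc6a genes the creatine carrier Slc6a8 was the one called outside the set-apart group. Slc6a8 (chromosome X, 72716756 to 72726108 on GRCm39) had 113, 111 and 113 CPM in PBS, 122, 121 and 124 with TNF and 103, 103 and 111 with ACHP added. The TNF libraries were the highest and the ACHP libraries the lowest, with ACHP replicate 3 just below PBS. The fall on adding ACHP was -0.22 on the log2 scale (SE 0.04, edgeR adjusted p = 0.0021), and it was called whichever library was left out (-0.25 to -0.20). With the neuron list as a covariate the value was the same in size but not called (-0.23, edgeR adjusted p = 0.063), and likewise with the term for neuron-rich libraries (-0.23, edgeR adjusted p = 0.19). The difference of 0.12 between TNF and PBS did not pass the test (SE 0.04, edgeR adjusted p = 0.078).

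Slc6a6, the taurine carrier, had 278 ± 3.45, 264 ± 9.5 and 270 ± 2.22 CPM in the 3 conditions (SD, n = 3), a change of -0.07 with TNF that did not pass the test. Slc6a12, which carries the osmolyte betaine, stood at 2.38 ± 0.253, 2.97 ± 0.656 and 2.27 ± 0.246 CPM. Slc6a9, the glycine carrier GlyT1, stood at 5.99 ± 1.22, 6.02 ± 0.571 and 5.75 ± 0.951 CPM, with 30.2% of its exon length shared with neighbours. Slc6a14, a broad carrier of neutral and cationic amino acids, was at 4.69 ± 0.253, 4.42 ± 0.506 and 3.50 ± 0.809 CPM, and Slc6a17, a synaptic vesicle carrier, at 8.80 ± 1.70, 7.16 ± 0.674 and 6.79 ± 0.814 CPM. None of these was called. The lysosomal and plasma membrane proton-coupled carrier Slc36a1, at 17.4 ± 0.0942, 17.1 ± 1.01 and 17.7 ± 0.779 CPM, and Slc36a4, at 16.9 ± 2.25, 17.1 ± 1.11 and 15.3 ± 1.35 CPM, were not called either.

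Most carriers that mark the proximal tubule were nearly absent. A list of 12 carriers, drawn up after the values were seen, summed to 9.90 to 11.01 CPM in PBS, 10.3 to 11.7 with TNF and 8.11 to 9.81 with both agents. The list holds Slc7a7 and Slc7a8, at 3.34 and 1.88 CPM in PBS, which are also counted above as light chains of Slc3a2. Its sum is therefore not one of tubule carriers alone. Over all 9 libraries Slc7a9, the light chain of the cystine carrier, had 3 counts, its heavy chain Slc3a1 had 55 (26.5% of its exon length is shared with Prepl), Slc7a13 had 2 and Slc36a2 and Slc7a12 had 0. Slc6a18 had 65 counts, Slc38a3, a glutamine carrier of the tubule, 38, Slc6a20a 37 and Slc6a20b 7. Slc6a19, the main neutral amino acid carrier of the brush border, was tested and stood at 2.65 ± 0.215, 2.89 ± 0.265 and 2.41 ± 0.481 CPM (SD, n = 3), with no call. Markers of the proximal tubule moved between conditions, from 47.5 to 50.5 CPM in PBS to 32.7 to 37.4 with TNF and 36.3 to 39.1 with both agents. Of the 5 tested, 2 (Ggt1 and Aqp1) fell with TNF, beside 2.91% of all genes tested. The 4 listed carriers that were tested were Slc6a19, Slc7a7, Slc7a8 and Slc1a1, the last just outside the set-apart rule. None of them was called with TNF by edgeR or DESeq2, beside 6.22% of all genes tested by edgeR, and 0 had an unadjusted p under 0.05. Little is read from this absence in so few genes.

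The set-apart genes Slc1a2, Slc1a3, Slc6a11 and Slc7a14 were high in the libraries with neuron transcripts and low in the others. Slc1a2 (GLT-1), the main glutamate carrier of astrocytes, had 0.706, 39.2 and 36.3 CPM in PBS, 16.5, 33.4 and 26.8 with TNF, and 2.27, 1.10 and 0.51 with ACHP added. Slc1a3 (GLAST), a second astrocyte glutamate carrier, had 1, 146 and 140 counts in PBS, 74, 80 and 85 with TNF and 11, 7 and 2 with both. PBS replicate 1 was in each case among the low libraries, apart from its own group. The GABA carrier Slc6a11 had 0, 11 and 20 counts in PBS, 8, 12 and 8 with TNF, and 1, 0 and 0 with both agents. Slc7a14, a carrier-like gene of neurons, had 1, 33 and 9, then 8, 12 and 10, then 2, 2 and 1 counts. The PBS values chose these genes and test nothing.

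Between TNF with ACHP and TNF alone, Slc1a2, Slc1a3 and Slc6a11 were called lower by edgeR, and Slc1a2 and Slc6a11 by DESeq2 as well. The choice did not use these libraries, but it favoured genes that go with neuron transcripts, in which no ACHP library was rich. Slc1a2 had a log2 fold change of -4.29 (SE 0.77, edgeR adjusted p = 0.0014). With a robust fit neither Slc1a2 (edgeR adjusted p = 0.14) nor Slc1a3 (edgeR adjusted p = 0.17) was called. The call of Slc6a11 held in 4 of the 8 fits without a library in which it was tested. Of the 15 neuron genes, 12 were called lower in the same comparison, beside 4.46% of all genes tested. With the term for neuron-rich libraries the value of Slc1a2 was 1.43 (SE 0.88, edgeR adjusted p = 0.54). That term was fitted from the PBS values that chose the gene, so nothing is read from its sign. No test against PBS is read for these genes, since PBS values chose them. Without PBS replicate 1, the count of transporter genes called for TNF versus PBS was 5, beside 957 of 15189 genes tested in that fit. Of the 5, 4 were lower with TNF, Slc1a2 and Slc1a3 included. That fit sets TNF against the PBS values that chose these genes, so nothing is read from it.

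Just outside the set-apart rule lay Slc1a1 (EAAC1), a glutamate and cysteine carrier of kidney and neurons, at a ratio of 3.89, beside 4.39 for Slc6a11 and 4.41 for Slc7a14 just inside. Slc1a1 had 2, 32 and 14 counts in PBS, 5, 14 and 5 with TNF and 3, 4 and 4 with both agents, and 31.9% of its exon length is shared with 4430402I18Rik. Its log2 fold change of -2.11 for TNF with ACHP versus PBS was the largest among the 34 genes in that comparison and did not pass the test (SE 0.69, edgeR adjusted p = 0.076).

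**Figure D4:**
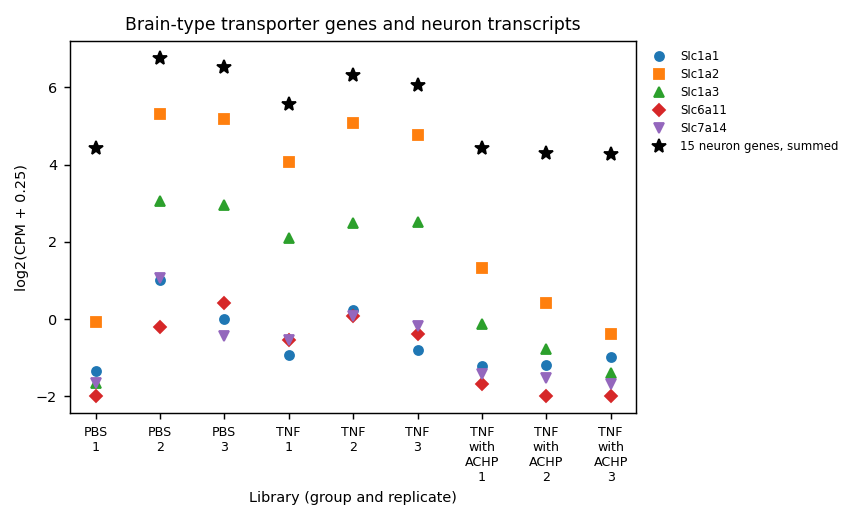
Level of 4 set-apart genes and Slc1a1 in each library as log2(CPM + 0.25), with the sum over 15 neuron genes as stars. PBS replicate 1 lies with the 3 ACHP libraries at the low end, with neuron sums of 19.3 to 21.5 CPM, and the other 5 libraries lie above.

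The counts of called genes in the pathway lists that follow stand against the shares of all genes tested: 3.31% higher and 2.91% lower with TNF, 2.71% and 4.46% on adding ACHP, and 2.18% and 3.87% for both agents versus PBS. Of 27 tested genes of the ATF4 and amino acid response, which responds to amino acid supply, edgeR called 2 lower with TNF and DESeq2 1. Neither test called a gene higher, with 1 higher at an unadjusted p under 0.05. The 2 called by edgeR were Vldlr, a lipoprotein receptor (76.4 ± 3.6 to 62.7 ± 5.3 CPM, log2 fold change -0.29), and Stc2, a secreted glycoprotein (-0.39). On adding ACHP 2 rose by edgeR, Sesn2, a leucine sensor, by 0.25 and Gpt2, an alanine aminotransferase, by 0.24. DESeq2 called 1 higher, and 11 had an unadjusted p under 0.05 by edgeR, all higher. The list's median log2 fold change was 0.12, beside 0.00 over all genes tested. Against PBS, edgeR called 3 higher with both agents and DESeq2 2. The 3 were the transcription factor Atf3 at 0.36, the folate enzyme Mthfd2 at 0.18 and Ddit4, an inhibitor of mTORC1, at 0.17. For these lists too, ACHP and the neuron transcripts cannot be told apart when ACHP was added to TNF.

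Of 20 cytosolic aminoacyl-tRNA synthetase genes, which charge tRNAs with amino acids, 3 were higher with TNF, against 3.31% of all genes tested, Vars by 0.23, Hars by 0.17 and Kars by 0.14. On adding ACHP Wars rose by 0.18 and Vars fell by 0.14. None was called between both agents and PBS by edgeR or DESeq2, with 7 at an unadjusted p under 0.05, all higher.

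Among 16 genes listed for glutathione and cystine use, 3 fell with TNF, against 2.91% of all genes tested. These were Ggt1, which splits extracellular glutathione and is also on the proximal tubule list (27.3 ± 0.78 to 18.5 ± 1.3 CPM, log2 fold change -0.57), Gclm, the modifier subunit of glutathione synthesis (-0.22), and Gsr, glutathione reductase (-0.19). The same 3 were lower than PBS with both agents, at -0.52, -0.26 and -0.13. With TNF, DESeq2 called 3 of the 16 lower and 1 higher. The thioredoxin reductase Txnrd1 fell by 0.17 on adding ACHP. Of 29 genes of amino acid sensing by mTORC1, 2 were higher on adding ACHP, against 2.71% of all genes tested, Sesn2 and Sesn3 (0.25 and 0.18), and 0 were called in the other comparisons by edgeR or DESeq2, with 4 and 5 at an unadjusted p under 0.05 for TNF and for both agents versus PBS.

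**Figure D5:**
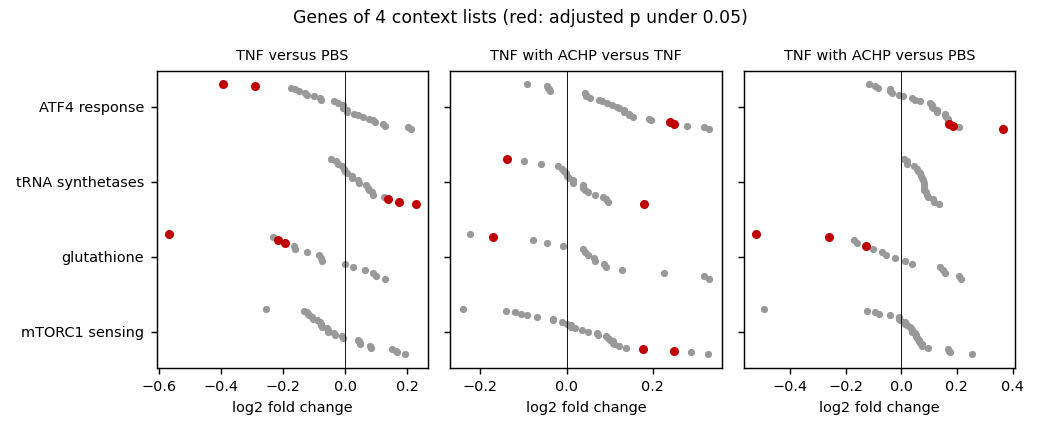
The log2 fold change of each tested gene of 4 pathway lists in the 3 comparisons, a point per gene, sorted within its list, with red for an adjusted p under 0.05. Values lie mostly within 0.25 of 0 and the red points are few, with Ggt1 at -0.57 the lowest with TNF.

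Amino acid transporters of other families numbered 14 tested, of 20 found. With TNF 0 were called by edgeR or DESeq2, beside 6.22% of all genes tested by edgeR, with 2 at an unadjusted p under 0.05. On adding ACHP 2 were lower, the neuronal glutamate vesicle carrier Slc17a7, also a gene of the neuron list (-4.54), and Slc15a3, a lysosomal carrier of histidine and peptides (1.24 ± 0.22 to 0.509 ± 0.074 CPM, -1.26). Slc16a10, an aromatic amino acid carrier, was lower with both agents than in PBS (-0.31), as were Slc15a3 (-1.47) and Slc17a7 (-4.91). Slc15a3 is known from macrophages, whose markers were lower in the same libraries, and their part was not tested.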

How the data were processed

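RNA from 9 libraries in 3 groups was sequenced; the titles give their groups and replicate numbers. The authors deposited raw read counts per Ensembl gene. Per the file headers these were made with featureCounts 2.0.1 on Ensembl 109 for GRCm39, and the submitters' processing notes name STAR, featureCounts, DESeq2 and mm10. Gene coordinates are those of the file (GRCm39). At the default settings in the header, counts are unstranded and reads with several alignments or several overlapping genes are left out, so genes that share exons lose reads. Symbols were matched for 52029 identifiers, which hold 99.6% of the counts.

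Tests used edgeR 4.0.16 in R 4.3.3 (filterByExpr, TMM factors of 0.993 to 1.01, quasi-likelihood fit of a mean per group to all 9 libraries, 14747 genes tested, Benjamini-Hochberg adjustment). The common dispersion was 0.00161, a coefficient of variation of 4.01%. CPM was scaled by TMM over the tested genes, and divided by exon length where genes are compared. The fit was tested on simulated data. Within groups, replicate pairs differed by a chi-square per degree of freedom of 1.86 to 6.54, so none was a copy. Alternatives included DESeq2 1.42.0, other scalings and filters, the replicate number, terms for neuron transcripts and leaving out each library. Exon lengths are those of the deposited table, in bases.

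The named genes are those called in any comparison, the 10 highest per kb with PBS, those set apart, Slc3a1, Slc3a2, Slc7a11, Slc7a5, Slc1a5, Slc1a4, Slc1a2 and Slc38a2, and up to 4 called genes of each list; other transporter genes are named to account for the families, chosen after their values were seen. A set-apart gene enters the counts but is not reported here, nor is a list of transporter chaperones. Members and lists were chosen with earlier results of these data known.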

Additional observations from a re-analysis of the deposited data

How the results depend on the processing

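Over the 3 comparisons, 20 alternative fits each were run. For TNF versus PBS, the 3 transporter genes called became 1 with no filter on low counts and 1 at an adjusted p under 0.01. With a term for the neuron-rich libraries they became 5, 4 of them lower. Slc1a2 and Slc1a3 were among these, and PBS values chose both, so nothing is read from that count. Outside the set-apart group the 3 became 1 with no filter and 1 at an adjusted p under 0.01. For TNF with ACHP versus TNF, the 7 called became 4 with a robust fit, 4 at an adjusted p under 0.01, and 0 with the neuron list as a covariate or with the neuron-rich term, where 6 and 5 had an unadjusted p under 0.05 by edgeR. Over all 14747 genes the calls of that comparison fell from 1058 to 250 and 143 with these terms, and those of both agents versus PBS from 891 to 128 and 162. Outside the set-apart group the 3 became 5 with no filter and 0 with either neuron term. For TNF with ACHP versus PBS, the 7 became 2 in a fit of only the 6 libraries compared, 3 with a robust fit, 3 at an adjusted p under 0.01 and 0 with either neuron term, where 4 had an unadjusted p under 0.05 in each. Outside the set-apart group the 2 became 1 with total counts alone and 0 with DESeq2, in the 6 libraries, at an adjusted p under 0.01 and with either neuron term. Over all genes tested, no filter raised the calls of TNF versus PBS from 917 to 1096. A robust fit took all-gene calls from 1058 to 1008 on adding ACHP and from 891 to 799 for both agents versus PBS. For both agents versus PBS, a fit of only the 6 libraries gave 493. At an adjusted p under 0.01, 442, 468 and 427 of all genes were called in the 3 comparisons. The cause of these shifts was not tested.

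Leaving out each library in turn gave 1 to 5, 5 to 8 and 3 to 7 calls in the 3 comparisons, and 1 to 3, 2 to 4 and 0 to 3 outside the set-apart group. Without PBS replicate 2, PBS replicate 3 or any TNF library, 1 gene was called for TNF versus PBS. Over all genes the calls of that comparison fell from 917 to 716 and 710 without PBS replicates 2 and 3. Without TNF replicates 1, 2 and 3 in turn they fell to 468, 499 and 597. Without PBS replicate 2, ACHP replicate 2 or ACHP replicate 3, the calls of both agents versus PBS were 3, and 0 outside the set-apart group, where leaving out TNF replicate 1 or 3 or ACHP replicate 1 left 1. Over all genes the calls fell from 891 to 511, 662 and 494 without PBS replicate 2, ACHP replicate 2 and ACHP replicate 3.

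With the neuron-rich term the fitted log2 change turned sign for set-apart genes: on adding ACHP to 1.43 for Slc1a2, 2.98 for Slc1a3 and 2.39 for Slc6a11, and against PBS to 0.86, 2.30 and 1.83 for the same genes and 0.38 for Slc7a14. For Slc7a14 it was 0.82 with the neuron list as a covariate. None of these was called. Within a condition, the neuron-rich term differs only among the PBS libraries, so it was fitted from PBS replicate 1 against replicates 2 and 3. Those values chose the set-apart genes, so nothing is read from the turned signs. A 2-fold rule set 8 genes apart in place of 5, adding Slc1a1, Slc43a1 and Slc6a7, and an offset of 0.1 CPM, chosen after seeing the data, set 7 apart.

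Fitting the replicate number as a block gave 3, 8 and 8 calls, and 3, 3 and 3 outside the set-apart group. Over all genes tested that fit gave 945, 1175 and 988 calls, beside 917, 1058 and 891 without the block. Same-numbered libraries deviated together with correlations of only -0.14 to 0.164, and not every library correlated best with its own number, so the numbers were not taken as pairs.

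Depth limits the low genes: 3 counts correspond to 0.143 to 0.212 CPM, and genes under that level were not comparable between conditions.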

Other observations

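Genes that make or use arginine, the main substrate of Slc7a2, were listed after the rise of Slc7a2 was seen. Of 9 tested, 0 were called with TNF by edgeR or DESeq2, beside 6.22% of all genes tested by edgeR, with 3 at an unadjusted p under 0.05. Ass1, which makes the precursor of arginine, fell on adding ACHP, from 146 ± 3.8 to 121 ± 6.5 CPM (SD, n = 3), a change of -0.27 on the log2 scale (edgeR adjusted p = 0.00036). This was below its PBS level of 141 ± 2.4 CPM (-0.22, edgeR adjusted p = 0.003). For Ass1 too, ACHP and the neuron transcripts cannot be told apart when ACHP was added to TNF. The alternative fits were not read for Ass1. Odc1, which starts polyamine synthesis, had 0.11 with TNF and did not pass the test (edgeR adjusted p = 0.082). The arginases Arg1, at 3.67, 2.58 and 2.71 CPM in the 3 conditions, and Arg2, at 0.848, 0.733 and 0.966 CPM, were not called. Nos2, the inducible nitric oxide synthase, was not tested and stood at 0.047, 0.037 and 0.161 CPM on average.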
